A study of Homo sapiens with 2 samples.

Results

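The expression of collagen chains and of the enzymes that process them was examined in HSC-3 cells, an established human line of tongue squamous cell carcinoma, with and without FIN56. The 56 genes were chosen by symbol. They are the 44 genes of the deposited tables named COL, a number, A and a number, and 12 processing genes (LOX, LOXL1 to LOXL4, P4HA1 to P4HA3, PLOD1 to PLOD3 and SERPINH1), of 60616 genes in all. The control library comes from cells given 0.1% DMSO, the vehicle. The treated library comes from cells exposed to FIN56 at 1 µM, with a time of 48 h, and no time is labelled for the control. FIN56 induces ferroptosis, a death driven by peroxidation of membrane lipids, and the study applied it at a sublethal dose to look for transcripts that respond. Each group is 1 RNA-seq library of 1 cell line, so every difference below lacks replication and no p-value is given. The libraries held 70184517 (DMSO) and 73062209 (FIN56) expected counts, which are estimates of reads per gene that need not be whole.

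Collagens are made of chains with a repeated glycine that wind around each other in groups of the same or of different chains. Inside the cell, prolyl 4-hydroxylases (P4HA subunits) and lysyl hydroxylases (PLOD) modify the chains, and the chaperone HSP47, made by SERPINH1, holds the folded helix. Outside the cell, lysyl oxidases (LOX and LOXL) cross-link the assembled fibers. In squamous epithelium, type XVII collagen spans the membrane at hemidesmosomes, and type VII collagen forms the anchoring fibrils that fasten the basement membrane to the tissue beneath, whereas type I and type III collagens are mostly products of fibroblasts. Levels are given as FPKM, which is scaled for library size and gene length so that genes can be compared, and changes as the FPKM of the FIN56 library divided by that of the DMSO library. Beside it stands the ratio of expected counts scaled by library totals, with an exact Clopper-Pearson interval at 95%. The interval covers counting error only and compares 2 libraries, not the treatments.

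The libraries carried the markers of a squamous line. All 8 squamous markers (KRT5, KRT14, KRT17, KRT6A, TP63, CDH1, EPCAM and DSG3) were at an FPKM of at least 9.42 with DMSO and 10.57 with FIN56. Among 6 fibroblast markers (PDGFRA, PDGFRB, DCN, LUM, THY1 and FAP) the highest FPKM was 0.50, that of LUM, and their summed FPKM was 1.1 with DMSO and 1.01 with FIN56. The endothelial markers PECAM1, CDH5 and VWF stayed at or under 0.08. Of the leukocyte markers, PTPRC and CD3E had 0 counts, and CD14 stood at 3.62 and 5.15. The mesenchymal markers VIM (261.73 and 169.67), FN1 (16.53 and 12.32) and CDH2 (4.33 and 4.80) were also expressed, and ZEB1 was at 0.28 and 0.42. The FPKM ratio was thus 0.648 for VIM and 0.745 for FN1. It went the other way for CDH2, at 1.11, and for ZEB1, at 1.5 from 100 and 108.71 counts. The mesenchymal markers thus had no common direction, and their part in the collagen results below was not tested. In such bulk libraries, fewer cells that express a gene and less RNA per cell cannot be told apart.

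The genomic DNA just upstream of a few of these genes is printed because their levels set the main contrasts below. COL17A1 is the most abundant chain, COL7A1 is the abundant chain with the lowest ratio, COL27A1 is another lower chain, and COL4A5 and COL4A6 are neighbors that start in opposite directions. Sequences are from RefSeq (GRCh38.p14), read 5′ to 3′ on the strand of the gene and end at the base before the start site. The exception is the window shared by COL4A5 and COL4A6, which is read on the plus strand. It holds only the 121 bases where the 250-base windows upstream of these genes overlap. Capitals mark matches, on either strand, to the TATA box (TATAAA), the GC box (GGGCGG), a SMAD element (CAGACA) or the AP-1 motif (TGANTCA, where N is any base).
COL17A1, chr10:104085881-104086130, minus strand: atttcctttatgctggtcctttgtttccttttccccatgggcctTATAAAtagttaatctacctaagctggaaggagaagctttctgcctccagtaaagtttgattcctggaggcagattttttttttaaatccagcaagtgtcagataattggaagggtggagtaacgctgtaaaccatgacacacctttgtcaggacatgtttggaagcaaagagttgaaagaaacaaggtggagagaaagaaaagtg
COL7A1, chr3:48595330-48595579, minus strand: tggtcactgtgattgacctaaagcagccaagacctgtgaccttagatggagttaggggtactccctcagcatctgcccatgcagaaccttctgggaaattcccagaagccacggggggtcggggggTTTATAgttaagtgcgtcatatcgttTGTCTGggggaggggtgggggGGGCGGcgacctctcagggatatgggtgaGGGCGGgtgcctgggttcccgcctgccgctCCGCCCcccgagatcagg
COL27A1, chr9:114155287-114155536, plus strand: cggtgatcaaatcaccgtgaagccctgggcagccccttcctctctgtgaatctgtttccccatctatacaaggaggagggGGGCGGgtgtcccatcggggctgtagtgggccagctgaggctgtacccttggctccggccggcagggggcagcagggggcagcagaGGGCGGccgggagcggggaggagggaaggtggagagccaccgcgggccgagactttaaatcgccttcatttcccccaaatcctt
COL4A5 and COL4A6 shared window, chrX:108439588-108439708, plus strand: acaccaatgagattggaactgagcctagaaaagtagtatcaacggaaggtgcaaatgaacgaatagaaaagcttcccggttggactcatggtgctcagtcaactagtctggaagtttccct

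The windows upstream of COL17A1 and COL7A1 differ in base composition. GC makes up 40.4% of the COL17A1 window, 60.8% of the COL7A1 window and 64.4% of the COL27A1 window. The GC box GGGCGG matches COL7A1 in 3 places and COL27A1 in 2, and it has no match in the window of COL17A1. TATAAA matches COL17A1 and COL7A1 once each, and CAGACA, part of SMAD binding sites, matches COL7A1 once. Windows of the same 250 bases were found for 42 of the 56 genes, some with several start sites, which gave 58 windows. GGGCGG lies in 31 of these (53.4%) and in 42.6% of all 35116 promoter windows, and TATAAA in 9 (15.5%) and 10.7%. CAGACA lies in 5 (8.62%) and 13.6%, and TGANTCA, the AP-1 motif, in 1 (1.72%) and 6.57%. Windows of the same gene are not independent, and these differences were not tested. A match is a description of the letters and not a binding site.

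Collagen genes were more often lower than higher in the FIN56 library. Of the 56 genes, 33 reached a sum of 50 expected counts over the libraries with an FPKM above 0 in each, and these ratios were read. At an FPKM ratio of 1.5 or more, the criterion of the study, stood 2 of the 33 (COL8A1 and COL11A2), or 6.06%, beside 6.84% of all 15770 genes read. At 1/1.5 or less stood 9 of the 33, or 27.3%, beside 10.1% of all genes. These 9 were COL7A1, COL27A1, COL1A1, COL9A2, COL8A2, LOXL2, LOX, LOXL1 and LOXL4. The median log2 FPKM ratio was -0.18 over the 33 genes and 0.020 over all genes read. With the counting interval also on the same side of 1, the higher genes were 1 and the lower genes 8, since COL11A2 (37 and 52 counts) and LOXL4 (29 and 21) had intervals that include 1. Among the 22 chains read, 2 were higher and 5 lower, and among the 11 processing genes read, none was higher and 4 were lower, beside the same shares of all genes.

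**Figure D1:**
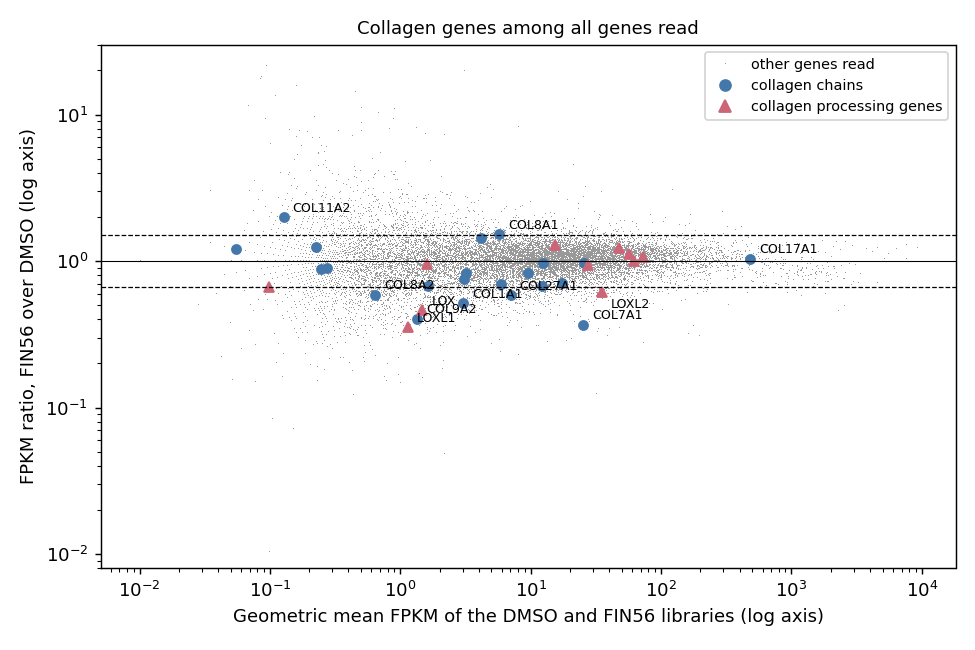
Each dot is a gene read in both libraries, placed by its geometric mean FPKM (horizontal, log axis) and by its FPKM ratio, FIN56 over DMSO (vertical, log axis), with collagen chains as circles, processing genes as triangles and dashed lines at 1.5 and 1/1.5. COL7A1 and LOXL2 are the most abundant collagen genes under the lower line, and COL17A1 lies near 1 at the far right.

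The other 23 genes had fewer than 50 counts in both libraries together and gave no ratio. Of these, COL1A2, COL9A1, COL14A1, COL19A1, COL20A1 and COL22A1 had 0 counts in both libraries. COL3A1, the chain of fibroblast type III collagen, had 0 and 1 counts. With 15 genes at 3 counts or fewer in each library, the level that a count of 0 allows, a large part of the collagen family was not detectable at this depth.

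COL17A1, the transmembrane chain of hemidesmosomes, was by far the most abundant collagen transcript. It stood at an FPKM of 474.64 without and 491.04 with FIN56, which ranked 196 and 189 among all genes. The FPKM ratio was 1.03 and the count ratio 0.950 (0.943 to 0.958), from 128441 and 127053 counts, so the direction of this small difference depends on the unit. COL17A1 made up 73.8% of the summed FPKM of the 44 chains with DMSO and 80.3% with FIN56. Without it, the summed FPKM of the other 43 chains was 168.31 with DMSO and 120.13 with FIN56, a ratio of 0.714. The share of COL17A1 was larger in the FIN56 library while its own level hardly differed.

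COL7A1, which encodes the chain of anchoring fibrils, had the largest relative difference among the abundant chains. The gene (ENSG00000114270) lies on the minus strand of chromosome 3 from 48564073 to 48595329, and its canonical transcript has 119 exons and 9231 bases (GRCh38, GENCODE release 44). It had 14903 counts and an FPKM of 41.79 with DMSO, and 5231 counts and an FPKM of 15.41 with FIN56. The FPKM ratio was 0.369 and the count ratio 0.337 (0.327 to 0.348). It made up 6.50% of the chains' summed FPKM with DMSO and 2.52% with FIN56. COL7A1 and COL17A1 both belong to the junction between epithelium and basement membrane, and their FPKM ratios were 0.369 and 1.03. COL13A1, another transmembrane chain, stood at an FPKM of 3.56 and 2.67, a ratio of 0.750, with a count ratio of 0.771 (0.672 to 0.885).

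**Figure D2:**
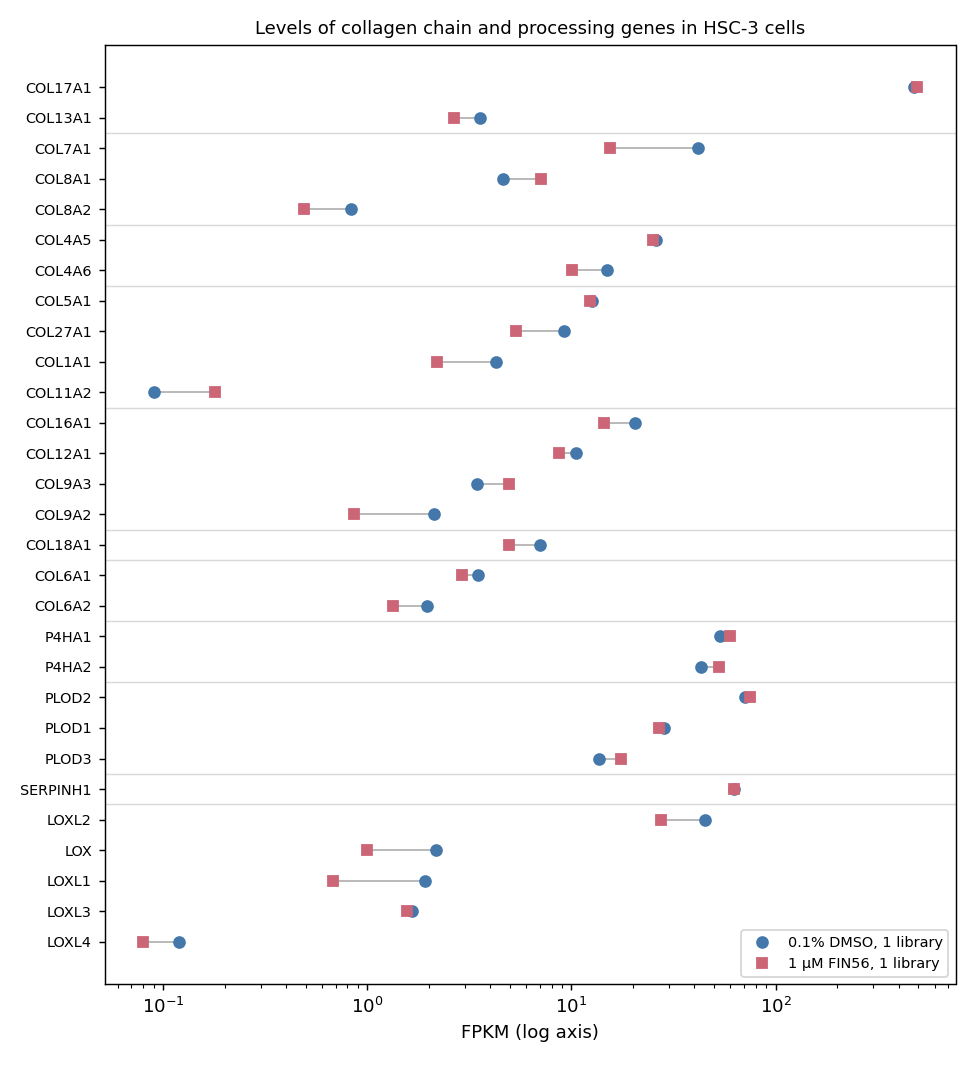
FPKM (horizontal, log axis) of the 29 named collagen genes, grouped from transmembrane chains at the top to lysyl oxidases at the bottom, with circles for the DMSO library and squares for the FIN56 library. COL17A1 stands at 474.64 and 491.04, far above COL7A1 at 41.79 and 15.41.

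Type IV collagen forms the network of basement membranes, and its chains were represented by COL4A5 and COL4A6. COL4A5 had an FPKM of 26.01 with DMSO and 25.13 with FIN56 (7826 and 7774 counts), and COL4A6 had 14.95 and 10.09 (5956 and 4023 counts). The FPKM ratio was 0.966 for COL4A5 and 0.675 for COL4A6, just above 1/1.5. By counts the ratio of COL4A6 was 0.649 (0.623 to 0.675), which is below that limit, and that of COL4A5 was 0.954 (0.925 to 0.985). These intervals do not overlap. Both genes lie on chromosome X, COL4A5 on the plus strand from 108439838 and COL4A6 on the minus strand to 108439497. In RefSeq 379 bases lie between the start site of COL4A5 and a start site of COL4A6, and the 121 bases printed above are part of these. RefSeq lists 2 windows for COL4A6, and gene-level counts do not show which of them was used. The ratio of COL4A5 to COL4A6 FPKM was 1.74 with DMSO and 2.49 with FIN56. The common chains COL4A1 and COL4A2, which most cells with a basement membrane use, were low, with 57 and 71 counts for COL4A1 and 10 and 5 for COL4A2. COL4A4 had 33 and 30 counts and COL4A3 1 and 2.

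Among 11 fibrillar chains, which build the banded fibers of connective tissue, 6 were read, of which 1 was higher and 2 were lower, beside 6.84% and 10.1% of all genes read. COL5A1, a chain of the type V collagen that initiates fibers, was the most abundant, with an FPKM of 12.61 and 12.32 and a count ratio of 1.02 (0.984 to 1.06). COL27A1 (chromosome 9, 114155537 to 114312511, plus strand) had 3107 and 1760 counts and an FPKM of 9.19 and 5.37. Its FPKM ratio was 0.584 and its count ratio 0.544 (0.513 to 0.577). COL1A1, the main chain of type I collagen, had 919 and 562 counts and an FPKM of 4.25 and 2.19. The FPKM ratio of COL1A1 was 0.515 and the count ratio 0.587 (0.528 to 0.653). COL11A2 reached an FPKM ratio of 2 from values of 0.09 and 0.18, while its counts of 37 and 52 gave a ratio of 1.35 with an interval of 0.869 to 2.12. COL2A1 (39 and 29 counts) and COL5A2 (105 and 127) lay between the limits. Both lower fibrillar chains thus rested on far more reads than the higher chain.

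FACIT chains attach to the surface of fibers, and 4 of 10 were read. COL16A1 had an FPKM of 20.54 and 14.48, a ratio of 0.705 with a count ratio of 0.681 (0.649 to 0.715). COL12A1 stood at 10.52 and 8.65, a ratio of 0.822. COL9A2 was lower, with 285 and 159 counts, an FPKM of 2.13 and 0.86, an FPKM ratio of 0.404 and a count ratio of 0.536 (0.439 to 0.653). COL9A3 pointed the other way, with 213 and 320 counts, an FPKM of 3.43 and 4.96 and a ratio of 1.45 by either unit (1.21 to 1.72). COL9A2 and COL9A3 are chains of the same type IX collagen and stood on opposite sides of 1. COL18A1, the source of endostatin and a component of basement membranes, had an FPKM of 7.05 and 4.93 and a ratio of 0.699, with a count ratio of 0.683 (0.642 to 0.726).

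Type VIII collagen, a network collagen known from vessel walls and the cornea, also had chains on opposite sides of 1. COL8A1 had 1165 and 1939 counts and an FPKM of 4.64 and 7.06, an FPKM ratio of 1.52 and a count ratio of 1.60 (1.49 to 1.72). COL8A2 had 259 and 156 counts and an FPKM of 0.83 and 0.49, a ratio of 0.590 and a count ratio of 0.579 (0.471 to 0.708). COL8A1 over COL8A2 was 5.59 by FPKM with DMSO and 14.4 with FIN56. Type VI chains form beaded filaments around cells. COL6A1 stood at 3.50 and 2.92 FPKM, a ratio of 0.834, and COL6A2 at 1.97 and 1.33, a ratio of 0.675 with a count ratio of 0.653 (0.562 to 0.757).

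Some chains that assemble with each other were expressed very unequally, and others at similar levels. COL1A2, which joins COL1A1 in ordinary type I collagen, had 0 counts in both libraries beside the 919 and 562 counts of COL1A1. The type V partner COL5A2 had an FPKM of 0.29 and 0.26, so that COL5A1 was 43.5 times as abundant with DMSO and 47.4 times with FIN56. COL5A3 had 18 and 9 counts. In type VI collagen, COL6A3 had 1 and 9 counts beside 905 and 816 of COL6A1, and COL6A5 and COL6A6 had at most 3. COL9A1 of type IX collagen had 0 counts in both libraries. Closer to each other were COL6A1 and COL6A2, with an FPKM ratio of the former to the latter of 1.78 with DMSO and 2.20 with FIN56. COL9A2 over COL9A3 was 0.621 by FPKM with DMSO and 0.173 with FIN56, and COL4A5 over COL4A6 is given above. By counts COL9A2 was above COL9A3 with DMSO (285 and 213) and below it with FIN56 (159 and 320). The FPKM values of this pair rest on estimated lengths of 884 bases for COL9A3 in both libraries and 1906 and 2530 for COL9A2. These are transcript levels, and no assembled collagen was measured.

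**Figure D3:**
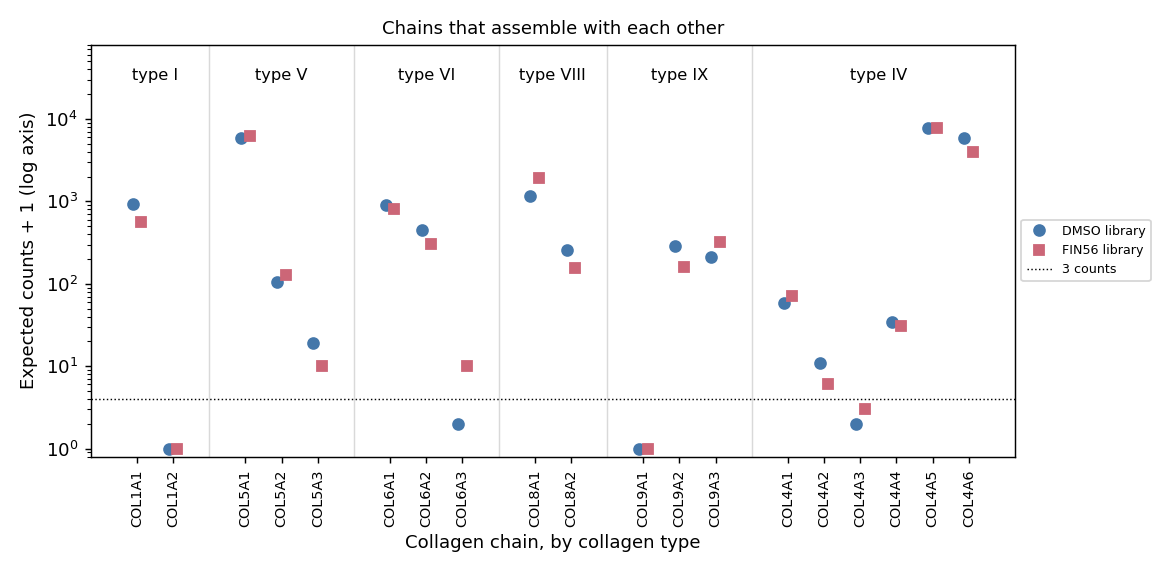
Expected counts plus 1 (vertical, log axis) of the chains of 6 collagen types (horizontal), with circles for the DMSO library, squares for the FIN56 library and a dotted line at 3 counts. COL1A2 and COL9A1 lie at 0 counts in both libraries while their partners COL1A1, COL9A2 and COL9A3 have between 159 and 919.

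The enzymes and the chaperone that act inside the cell were more abundant than most chains, and none of the 6 that were read passed either limit, as was the case for 13096 of the 15770 genes read. PLOD2, the lysyl hydroxylase of collagen ends, had an FPKM of 70.92 and 75.11 and a ratio of 1.06. SERPINH1 stood at 62.48 and 62.52, with a count ratio of 1.00 (0.973 to 1.03). P4HA1, a catalytic subunit of prolyl 4-hydroxylase, had 53.38 and 59.40, a ratio of 1.11, and P4HA2, another such subunit, had 42.86 and 52.88, a ratio of 1.23. The count ratio of P4HA2 was 1.2 (1.16 to 1.24). PLOD1, which hydroxylates the helix, stood at 28.40 and 26.68, a ratio of 0.939. PLOD3 had 13.64 and 17.56, an FPKM ratio of 1.29 beside a count ratio of 1.1 (1.04 to 1.17). P4HA3 had 6 and 9 counts and was not read. Summed over these 7 genes the FPKM was 271.74 with DMSO and 294.32 with FIN56.

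The lysyl oxidases, which act on collagen and elastin outside the cell, included LOXL2, LOX and LOXL1, which were lower in the FIN56 library by FPKM and by counts. Of the 5, all had an FPKM ratio below 1, as had 7463 of the 15770 genes read. At 1/1.5 or less were 4, beside 10.1% of all genes, and 3 of those had a counting interval below 1, beside 9.07% of all genes with both. LOXL2 was the most abundant, with 10367 and 6587 counts and an FPKM of 44.98 and 27.59, a ratio of 0.613 and a count ratio of 0.610 (0.592 to 0.630). LOX had 466 and 255 counts and an FPKM of 2.17 and 1.00, a ratio of 0.461 and a count ratio of 0.526 (0.449 to 0.614). LOXL1 had 68 and 26 counts and an FPKM of 1.92 and 0.68, a ratio of 0.354, and its wide interval for the count ratio of 0.367 ran from 0.224 to 0.585. LOXL3 had 321 and 324 counts and a count ratio of 0.969 (0.828 to 1.13). LOXL4 lay exactly at both the count minimum and the ratio limit, with 29 and 21 counts and an FPKM of 0.12 and 0.08. The summed FPKM of the 5 oxidases was 50.84 with DMSO and 30.92 with FIN56, a ratio of 0.608, and this sum is mostly LOXL2.

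**Figure D4:**
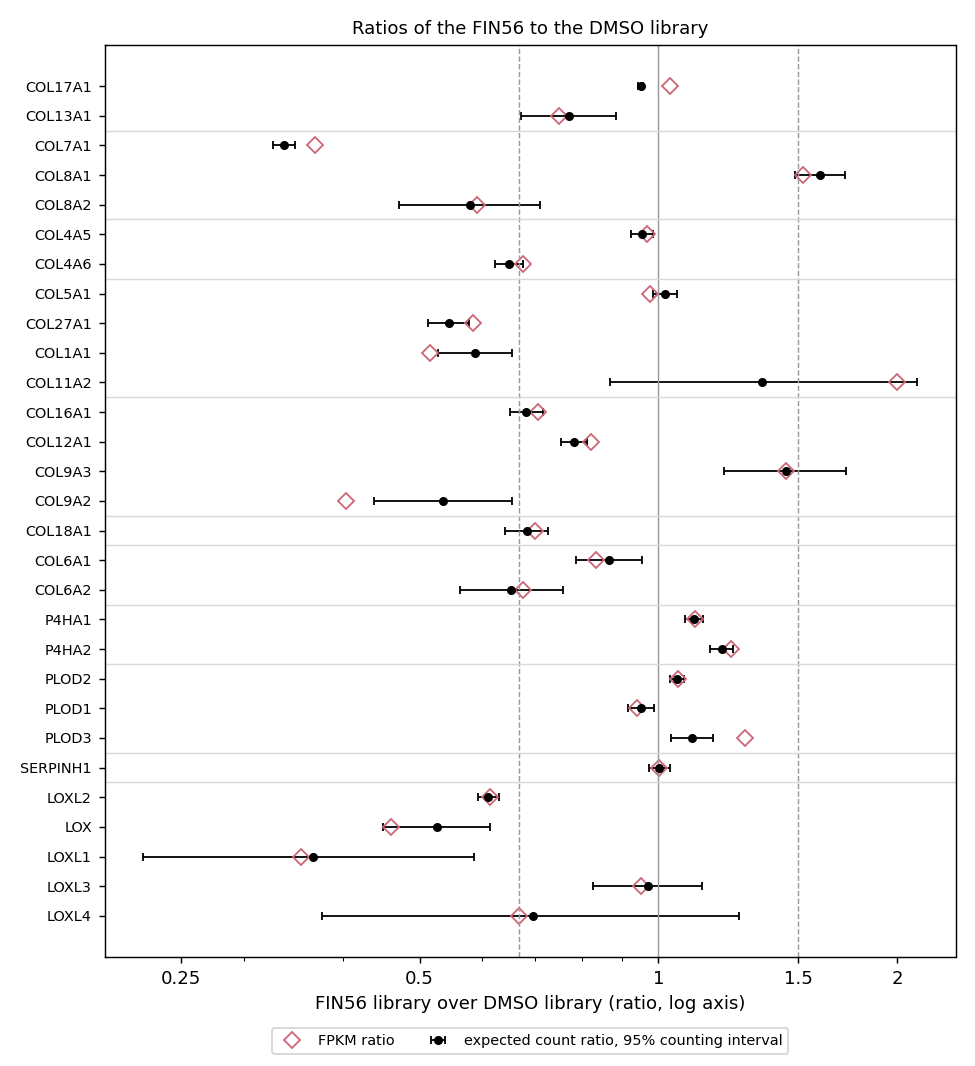
Ratio of the FIN56 to the DMSO library (horizontal, log axis) for the 29 named collagen genes, with open diamonds for FPKM and filled circles for expected counts with their 95% counting interval, and dashed lines at 1.5 and 1/1.5. LOX, LOXL1 and LOXL2 lie left of the lower line by either measure, while P4HA1, P4HA2, PLOD1, PLOD2, PLOD3 and SERPINH1 lie between the lines.

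A list of 30 other genes of the collagen pathway was read in the same way. Of these, 21 had enough counts. At 1.5 or more were 2, beside 6.84% of all genes read, none was at 1/1.5 or less, beside 10.1%, and the median log2 FPKM ratio was -0.010. The most abundant were SPARC, a collagen-binding matrix protein (FPKM 560.16 and 575.02), PPIB, a prolyl isomerase (332.07 and 309.55), P4HB, the partner of the P4HA subunits (291.08 and 278.24), DDR1, a collagen receptor kinase (219.41 and 208.18), and CRTAP, part of the prolyl 3-hydroxylase complex (77.52 and 65.99). Their FPKM ratios ran from 0.851 (CRTAP) to 1.03 (SPARC). PCOLCE2, which enhances the removal of procollagen ends, had 397 and 861 counts and an FPKM ratio of 2.22, with a count ratio of 2.08 (1.85 to 2.35). DDR2, the receptor kinase for fibrillar collagens, had 58 and 504 counts and an FPKM of 0.16 and 1.14. Its FPKM ratio was 7.12 and its count ratio 8.35 (6.35 to 11.2), from a level that was low in the DMSO library. ADAMTS2 and ADAMTS3, proteases that cleave procollagen, and FMOD had 0 counts in both libraries.

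Collagen transcripts are rich in G and C and long, and over all genes read lower ratios were more common among the GC-rich ones. The median GC content of the canonical transcript was 61.4% for the 22 chains read, 58.9% for the 33 collagen genes and 48.4% for all genes read, and the median length was 5763, 5059 and 2872 bases. In 10 equal bins of GC content, the share of all genes at an FPKM ratio of 1/1.5 or less ranged from 5.40% in the lowest bin to 17.2% in the highest. The 3 highest bins held 24 of the 33 collagen genes, of which 8 were at 1/1.5 or less and 1 at 1.5 or more. Over all 4719 genes of these bins the shares were 14.8% and 5.59%. The median log2 FPKM ratio in these bins was -0.46 for collagen genes and -0.066 for all genes. Among the 9 collagen genes in the other bins, 1 was higher, 1 was lower and the median was 0.083. Over all genes of these other bins, 6.42% to 8.33% per bin were higher and 5.40% to 12.3% lower. After the ratios were centred within bins of GC content and length, the lower collagen genes were 8 of 33, beside 9.89% of all genes. The median log2 ratio of the collagen genes was then -0.18. Centring subtracts the median of each bin and leaves differences in spread between bins in place. The ratio of COL7A1 was then 0.394. COL8A1, at 1.47, no longer reached the limit and COL9A3, at 1.53, did, so that 2 genes were higher, and LOXL4, at 0.670, was no longer among the lower genes.

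**Figure D5:**
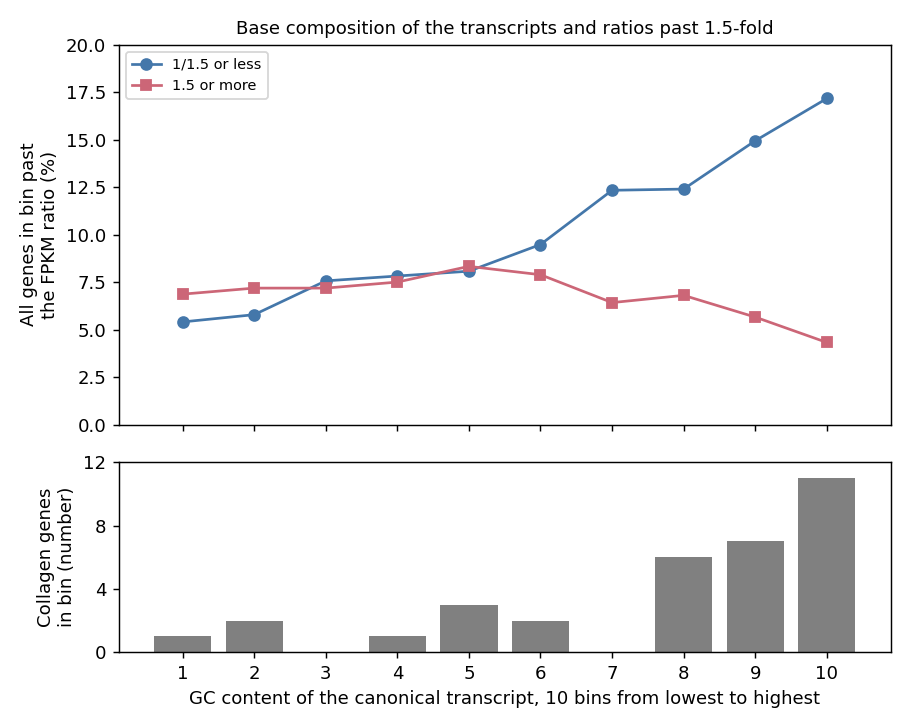
Upper panel, percent of all genes read at an FPKM ratio of 1/1.5 or less (circles) or 1.5 or more (squares) in 10 bins of transcript GC content from lowest to highest, and lower panel, the number of collagen genes in each bin. The share of lower genes is 5.40% in the first bin and 17.2% in the last, and the last bin holds 11 of the 33 collagen genes.

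For some genes FPKM and counts gave different sizes of change, since FPKM divides by an effective length that is estimated separately for every library. The 2 ratios departed by more than 10% in 8 of the 33 collagen genes (24.2%) and in 17.9% of all genes read. For COL9A2 the length implied by counts and FPKM was 1906 bases with DMSO and 2530 with FIN56, for COL1A1 3081 and 3512, for LOX 3062 and 3494, and for PLOD3 2023 and 1734. For COL11A2 it was 5858 and 3954, from few reads and FPKM values of 2 decimals. For LOXL1 it was similar in both libraries, 505 and 523, but far below the 2346 bases of its canonical transcript. The FPKM level of LOXL1 thus rests on a short estimated length and few reads. Short lengths were not particular to LOXL1. COL9A3 had 884 bases in both libraries beside a canonical 2497. With DMSO the implied length was 5081 of 9231 bases for COL7A1 and 3081 of 5914 for COL1A1. For SERPINH1 it was nearer, 1867 of 2058. Expected counts were not whole, as where reads are divided between genes, for 7 of the 33 (LOXL2, PLOD3, COL27A1, COL18A1, COL9A3, LOX and LOXL3), and their values are less certain for that reason. LOX also overlaps SRFBP1 on the opposite strand in the annotation. Of 8 antisense genes named after a collagen gene, 4 had 0 counts in both libraries and 3 had at most 4. LOXL1-AS1, which overlaps LOXL1 on the other strand of chromosome 15, had 68 and 37 counts, a count ratio of 0.523 (0.340 to 0.791). Whether strand was used in counting is not given in the sources used here, so reads of LOXL1 and LOXL1-AS1 may not be separable.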

How the data were processed

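Libraries were made with the Illumina TruSeq Stranded mRNA kit, per the labels. The study's methods give these steps for tumors, and they were assumed to apply to the HSC-3 libraries too. Reads were trimmed with AfterQC, aligned with STAR 2.6.1a to GRCh38 (annotation release 94) and quantified with RSEM 1.3.1. The deposited expected counts are estimated reads per gene without normalization. The FPKM and TPM values of the authors carry 2 decimals. Their deposited rlog values, from DESeq2 1.26.0, are log2 values.

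FPKM ratios, FIN56 over DMSO, were computed here where the expected counts of the libraries summed to 50 or more and FPKM was above 0 in each, with limits of 1.5 and 1/1.5. Counting intervals used rounded expected counts. The intervals cover counting error only, since there is 1 library per treatment. Reads carried no molecular identifiers, so repeated reads of 1 molecule could not be told apart, and the intervals may be too narrow. Genes were named one by one if their FPKM was at least 1 in a library or their ratio passed a limit, which gave 29, and chains of the same trimer were set side by side whatever their level. Of the other pathway genes, those past a limit and the 5 most abundant were named. The genes, lists and tests were chosen with earlier results of these data known. COL2A1, COL3A1, COL6A5, COL6A6 and the genes with 0 counts were named after their values had been seen. Positions, GC content and lengths came from GENCODE release 44 on GRCh38, later than the annotation of the authors. Promoter motifs were chosen after the ratios were known. The count ratios and counting intervals were run on simulated counts with counting error only and with changes larger than the limit. That simulation held no FPKM values and no variation between replicates, so it does not test the FPKM ratios. Alternatives used TPM, rlog, expected counts scaled by library totals, edgeR TMM (4.0.16) or DESeq2 (1.42.0) size factors, other minimums, pseudocounts of 0.1 and 1 FPKM, and a limit of 2. Python 3.11.15, scipy 1.17.1 and R 4.3.3 were used.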

Additional observations from a re-analysis of the deposited data

How the results depend on the processing

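No paired analysis was possible because there was a single library per treatment, which also left no replicate to leave out. Of the collagen genes read, 9 were at 1/1.5 or less. This number was 4 of 33 at a limit of 2, beside 3.25% of all genes. The 4 were COL7A1, LOXL1, COL9A2 and LOX. By counts, COL9A2 (0.536) and LOX (0.526) did not reach that limit. With rlog values, which are shrunken, the number of lower genes was 1 of 33, beside 0.101%. Under the other alternatives it lay between 6 and 12. The 6 were of 26 genes with whole counts, beside 10.1% of all such genes. The 12 were of 42 genes without a count minimum, beside 17.3%. With expected counts scaled by library totals 10 of 33 genes were lower, beside 10.1% of all genes, as LOXL4 dropped out and COL4A6 and COL6A2 came in. The 2 genes at 1.5 or more became 1 with expected counts under each of the 3 scalings, with an FPKM of at least 1 in a library, with a pseudocount of 0.1 FPKM, at a limit of 2 and with the counting interval on the same side of 1. Over all genes the share at 1.5 or more under these ran from 2.33% at a limit of 2 to 6.77% with DESeq2 size factors. The 1 gene kept was COL11A2 (37 and 52 counts) at a limit of 2 and COL8A1 under the others of these. The higher collagen genes became 0 with a pseudocount of 1 FPKM and with rlog values. Without a count minimum they were 4 of 42, beside 14.7% of all genes. The median log2 ratio of the collagen genes, -0.18, stayed negative under every alternative run, and was -0.052 with a pseudocount of 1 FPKM and -0.020 with rlog values. Among the other pathway genes, 1 was at 1.5 or more with rlog values, and 4 were without a count minimum, when 2 were at 1/1.5 or less. The median of that list, -0.010, lay on either side of 0, from -0.035 with TMM to 0.022 with TPM. Values of the 29 named genes were computed under 8 alternatives. Of the 232 values, 157 stayed within the gene's counting interval and 75 did not. Where the main FPKM ratio itself lay outside that interval, the shift was compared with the width of the interval. Some of the 75 moved little, such as COL4A6, from 0.675 to 0.677 with a pseudocount of 0.1 FPKM. No gene past a limit changed direction. COL7A1 ranged from 0.337 to 0.394 apart from rlog values (0.640) and pseudocounts. Over all 15770 genes read, 1078 were at 1.5 or more and 1596 at 1/1.5 or less. Without a count minimum these numbers were 3583 and 4240 of 24454, and with rlog values 7 and 16 of 15777. Of the same 15770 genes they were 355 and 665 with a pseudocount of 1 FPKM and 368 and 512 at a limit of 2. Over the 8325 genes with whole counts they were 536 and 840. Centring for GC content and length, whole counts and the interval rule were chosen after seeing the data. Depth limits the genes with few reads, such as LOXL1, LOXL4 and COL11A2.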
